A study of Saccharomyces cerevisiae with 12 samples.

Results

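Mitochondrial ribosomal protein genes of the yeast Saccharomyces cerevisiae were followed in cultures that over-express the copper transporter gene CTR1 or a truncated form of it. Genes were taken as members by name: the standard symbol had to be MRPL, MRPS, MRP or RSM followed by a number, or IMG1, IMG2, YML6, NAM9 or MNP1. The rule matched 72 genes of the RefSeq table, and 71 of them had a probe among the 6228 genes on the array. The gene not matched to a probe, RSM28, was not analysed here. All 71 were among the 6127 genes tested, and each was well above background on all 12 arrays. Of the 71, 69 carry the name of a mitochondrial ribosomal protein family among their RefSeq synonyms (42 of the large and 27 of the small subunit). The other two, RSM22 and MRP8, matched by symbol and carry no such family name.

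Mitochondria have their own ribosome, which makes a handful of membrane proteins of the respiratory chain and the ATP synthase from mitochondrial DNA, and in yeast also the ribosomal protein Var1. Its ribosomal RNAs are also encoded there, but nearly all of its proteins are encoded in the nucleus, made in the cytosol and imported. Some belong to families shared with bacterial ribosomes and others are found in mitochondria only. In yeast, the RNA-binding protein Puf3 binds many of the messages for them, and Hap4 is the regulated subunit of an activator of respiratory genes.

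The series measured 12 cultures of BY4741, a laboratory strain, in 4 groups of 3, with replicate numbers that per the design text stand for 3 independent experiments. In Dctr1_CTR1D300 (hereafter CTR1D300) the ctr1 deletion strain over-expressed the truncated CTR1 delta-300, and in Dctr1_Con the same strain held the matching empty vector. In WT_CTR1 the wild type over-expressed full-length CTR1, and in WT_Con it held the matching empty vector. Cultures of every group were in leucine-free SC medium with 0.02 mM CuCl2 for 7 h at 30 °C and 180 rpm, from an OD600 of 0.6. The truncated form was over-expressed only without the chromosomal gene and the full-length form only with it, so strain and construct cannot be told apart between those 2 groups. The labels used here do not name the promoter or the vector.

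Values are log2 processed signals of 1-colour arrays relative to the 75th percentile of gene probes on the same array. The scale orders the same gene between arrays and gives no order between genes. Replicates correlated at 0.992 to 0.998 within groups across genes, and the median SD of the 71 genes within a group was between 0.07 and 0.12. The CTR1 probe gave 4.76, 4.56 and 4.53 in WT_CTR1, against -2.51, -2.53 and -2.47 in WT_Con, while on the 6 deletion-strain arrays it did not reach well above background, so it gives no reading of the truncated construct. Each probe has 2 spots, and every over-expressing array lay in the second column of its slide and every control array in the first. For 9 of the 71 genes (12.7%) the gap between the 2 spots changed by more than 0.5 between slide columns, as it did for 12.3% of all genes tested. Counts of members called for a construct against its control are therefore given with each spot alone as well. Slide column and construct cannot be told apart in these comparisons, and a column effect shared by both spots would stay in those counts. RNA was from whole cultures, in which less message per cell and fewer cells that hold it cannot be told apart.

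With CTR1D300 the genes of the mitochondrial ribosome were mostly a little lower than in Dctr1_Con. Their share of called falls did not exceed that of all genes, and their share of called rises was smaller. Of the 71, 24 had a log2 fold change above 0, against 45.3% of all genes, and 19 fell and 3 rose, among them 11 falls and 1 rise in the large subunit and 8 falls and 1 rise in the small subunit. The deepest falls were those of MRPL1, MRPS28, MRP2 and RSM10, between 0.38 and 0.45 on the log2 scale, and the highest rise was that of RSM22 at 0.71. That is 26.8% falling and 4.23% rising, beside 30.6% and 24.0% of all genes tested. Their median log2 fold change was -0.09, beside -0.05 over all genes, and their quartiles were -0.27 and 0.09, beside -0.35 and 0.25 for all genes. Calls rest on limma with Benjamini-Hochberg adjustment over all 6127 genes, at an adjusted p under 0.05. With each array centred on its median, 13 members fell and 11 rose, and with quantile normalisation 16 fell and 9 rose. With the replicate number as a block, 26 fell and 10 rose, against 37.2% and 29.3% of all genes, with 6 of the rises in the large and 3 in the small subunit. Without slide 1, which held replicate 1 of every group, 7 fell, and without Dctr1_Con replicate 1 12 fell. The 3 rises became 6 without CTR1D300 replicate 1 and 5 without CTR1D300 replicate 3 or without WT_CTR1 replicate 2. Shares of all genes were not set beside the counts with median centring, quantile normalisation or arrays left out. Whether the members differ from all genes in those settings is thus not shown.

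**Figure D1:**
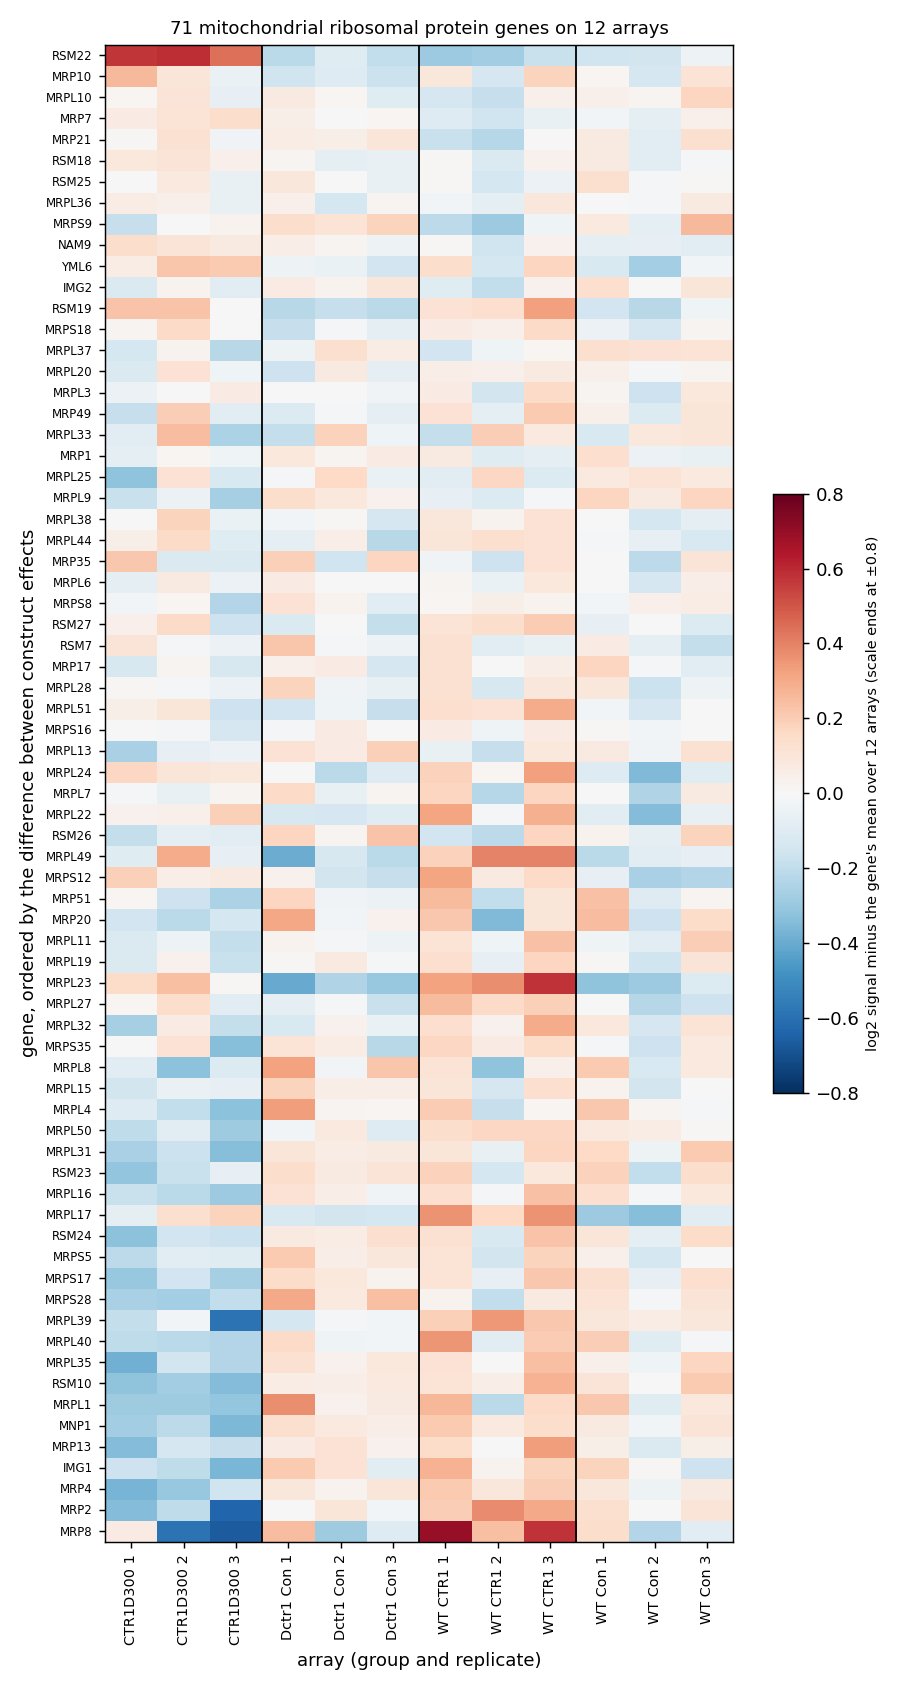
Log2 signal of each of the 71 genes (rows) on each of the 12 arrays (columns), as the deviation from the gene's mean over the arrays, with genes ordered by the difference between the construct effects. RSM22 at the top is highest on the 3 CTR1D300 arrays, and MRP8 and MRP2 at the bottom are lowest on CTR1D300 replicate 3.

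The large subunit holds the peptidyl transferase centre, the exit tunnel and a stalk that receives translation factors. MNP1, the relative of the bacterial stalk protein L7/L12 (bL12m), had 1.29, 1.36 and 1.21 with CTR1D300, against 1.70, 1.65 and 1.62 in Dctr1_Con. All 3 CTR1D300 arrays lay under all arrays of the other groups. MNP1 fell, at -0.37 ± 0.06 (SE of the log2 fold change, adjusted p = 0.000653), through one spot of its probe at -0.59 and through the other at -0.14 (adjusted p = 0.0672). MRPL1 (uL1m), the relative of the protein of the mobile L1 stalk, had 0.13, 0.13 and 0.11 with CTR1D300, against 0.79, 0.45 and 0.49 in Dctr1_Con. The groups did not overlap, and MRPL1 fell, at -0.45 ± 0.13 (SE of the log2 fold change, adjusted p = 0.0135). The fall of MRPL1 was at -0.35 with an adjusted p of 0.0568 without Dctr1_Con replicate 1, its highest control array, and had an adjusted p of 0.0682 without slide 1.

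IMG1 (bL19m), named for the integrity of the mitochondrial genome, had 0.67, 0.63 and 0.47 with CTR1D300, against 1.04, 0.95 and 0.74 in Dctr1_Con. The lowest Dctr1_Con value was close above the highest CTR1D300 value, and the fall was at -0.32 ± 0.11 (SE of the log2 fold change, adjusted p = 0.0288). It had adjusted p values between 0.0523 and 0.106 without Dctr1_Con replicate 1 or 2 or without CTR1D300 replicate 2 or 3, 0.0577 with median centring and 0.0781 without slide 1. IMG1 was at -0.35 through the lower-numbered spot (adjusted p = 0.0149) and at -0.30 through the higher-numbered one, where the call was lost (0.0669). IMG2 (mL49), named for the same phenotype, was at -0.12 ± 0.07 (SE) with an adjusted p of 0.175. Other large-subunit proteins chosen for their role did not pass the test, but some calls turn on the setting. YML6 (uL4m), whose family reaches into the exit tunnel, was at 0.24 ± 0.10 (SE, adjusted p = 0.0558, and 0.0423 with the replicate block). It was at 0.56 through the higher-numbered spot (adjusted p = 0.00061) and at -0.08 through the other. YML6 was also called with median centring (0.0278), quantile normalisation (0.012) and the series matrix (0.011), and without WT_Con replicate 2, WT_CTR1 replicate 2 or CTR1D300 replicate 1 (0.0231 to 0.0485). MRP20 (uL23m), whose family sits at the tunnel exit, was at -0.28 ± 0.15 (SE, adjusted p = 0.138, and 0.0241 with the block). MRP7 (bL27m), whose bacterial relative reaches the peptidyl transferase centre, was at 0.08 ± 0.06 (SE, adjusted p = 0.224), and with normexp background correction it was called at 0.20 (adjusted p = 0.0228).

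MRPL23 (uL13m) had -1.78, -1.69 and -1.92 with CTR1D300, against -2.33, -2.17 and -2.23 in Dctr1_Con. It rose by 0.45 ± 0.09 (SE, adjusted p = 0.00193) over both spots, but it was at 1.06 through the lower-numbered spot and at -0.16 through the higher-numbered one. MRPL49 (bL21m) was likewise split, at -0.22 through the lower-numbered and 0.80 through the higher-numbered spot. Over both spots it was at 0.29 ± 0.11 (SE, adjusted p = 0.0505, and 0.00575 with the replicate block). MRPL49 was also called with normexp, median centring, quantile normalisation and the series matrix (0.0246 to 0.0456), and without WT_CTR1 replicate 1, Dctr1_Con replicate 2 or CTR1D300 replicate 1 or 3 (0.0316 to 0.0492). The 2 spots of these probes thus give opposite signs for this comparison.

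The small subunit holds the decoding centre and binds the message. RSM10 (uS10m) had -1.68, -1.64 and -1.71 with CTR1D300, against -1.30, -1.31 and -1.28 in Dctr1_Con. Within each of these groups its arrays lay within 0.07 of each other, and the fall was at -0.38 ± 0.07 (SE of the log2 fold change, adjusted p = 0.0014). MRPS28 (uS15m) had -0.85, -0.86 and -0.79 with CTR1D300, against -0.29, -0.51 and -0.35 in Dctr1_Con. Its groups did not overlap, and it fell, at -0.45 ± 0.08 (SE of the log2 fold change, adjusted p = 0.00105). MRP2 (uS14m) had -2.65, -2.51 and -2.94 with CTR1D300, against -2.30, -2.21 and -2.33 in Dctr1_Con. It fell, at -0.42 ± 0.10 (SE of the log2 fold change, adjusted p = 0.00532), with CTR1D300 replicate 3 the lowest array. MRP4 (uS2m) had -1.07, -1.00 and -0.86 with CTR1D300, against -0.61, -0.67 and -0.60 in Dctr1_Con. All 3 of its CTR1D300 arrays lay under every array of the other groups, and it fell, at -0.35 ± 0.07 (SE of the log2 fold change, adjusted p = 0.00172).

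RSM19 (uS19m) had -1.92, -1.92 and -2.15 with CTR1D300, against -2.37, -2.33 and -2.36 in Dctr1_Con. It rose by 0.36 ± 0.09 (SE, adjusted p = 0.0049), and through the higher-numbered spot alone it was at 0.21 with an adjusted p of 0.0803. Without slide 1 the call of RSM19 was lost. The small-subunit proteins chosen for their role did not pass the test, but 2 of them were called in other settings. MRP1 (mS43) and RSM26 (mS42), both related in sequence to superoxide dismutase, were at -0.09 ± 0.07 (SE, adjusted p = 0.305) and -0.26 ± 0.11 (SE, adjusted p = 0.061, and 0.0132 with the replicate block). RSM26 was also called through the higher-numbered spot (-0.35, adjusted p = 0.0108) and without WT_CTR1 replicate 2 or 3 or Dctr1_Con replicate 2 (0.0267 to 0.0485). MRP10 (mS37), a small protein with a paired cysteine motif, was at 0.25 ± 0.10 (SE, adjusted p = 0.0553, and 0.0424 with the block). It was called at 0.37 with quantile normalisation (0.00259) and the series matrix (0.00213), at 0.29 with median centring (0.0225), at 0.32 through the higher-numbered spot (0.0189), and without WT_CTR1 replicate 2 (0.0333) or CTR1D300 replicate 3 (0.0277). NAM9 (uS4m), found as a suppressor of mitochondrial translation defects, was at 0.09 ± 0.06 (SE, adjusted p = 0.226), and MRP51 (bS1m), which acts in the translation of certain mitochondrial messages, at -0.17 ± 0.13 (SE, adjusted p = 0.281).

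RSM22, a methyltransferase-like protein of the small subunit's assembly, moved the other way. It had 0.42, 0.44 and 0.29 with CTR1D300, against -0.37, -0.25 and -0.35 in Dctr1_Con. The lowest CTR1D300 array was above every array of the other 3 groups. RSM22 rose by 0.71 ± 0.07 (SE, adjusted p = 1.04e-05), which is 1.63-fold, and by 0.73 and 0.68 through its 2 spots. MRP8, a protein whose role is not settled, had 0.83, 0.17 and 0.10 with CTR1D300, against 1.01, 0.48 and 0.66 in Dctr1_Con. Its groups overlapped, since replicate 1 was the highest in both, and it was at -0.35 ± 0.21 (SE, adjusted p = 0.173). With the replicate block, MRP8 was called at an adjusted p of 0.0132, without slide 1 at -0.43 with 0.0346, and without CTR1D300 replicate 1 at -0.58 with 0.0195.

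**Figure D2:**
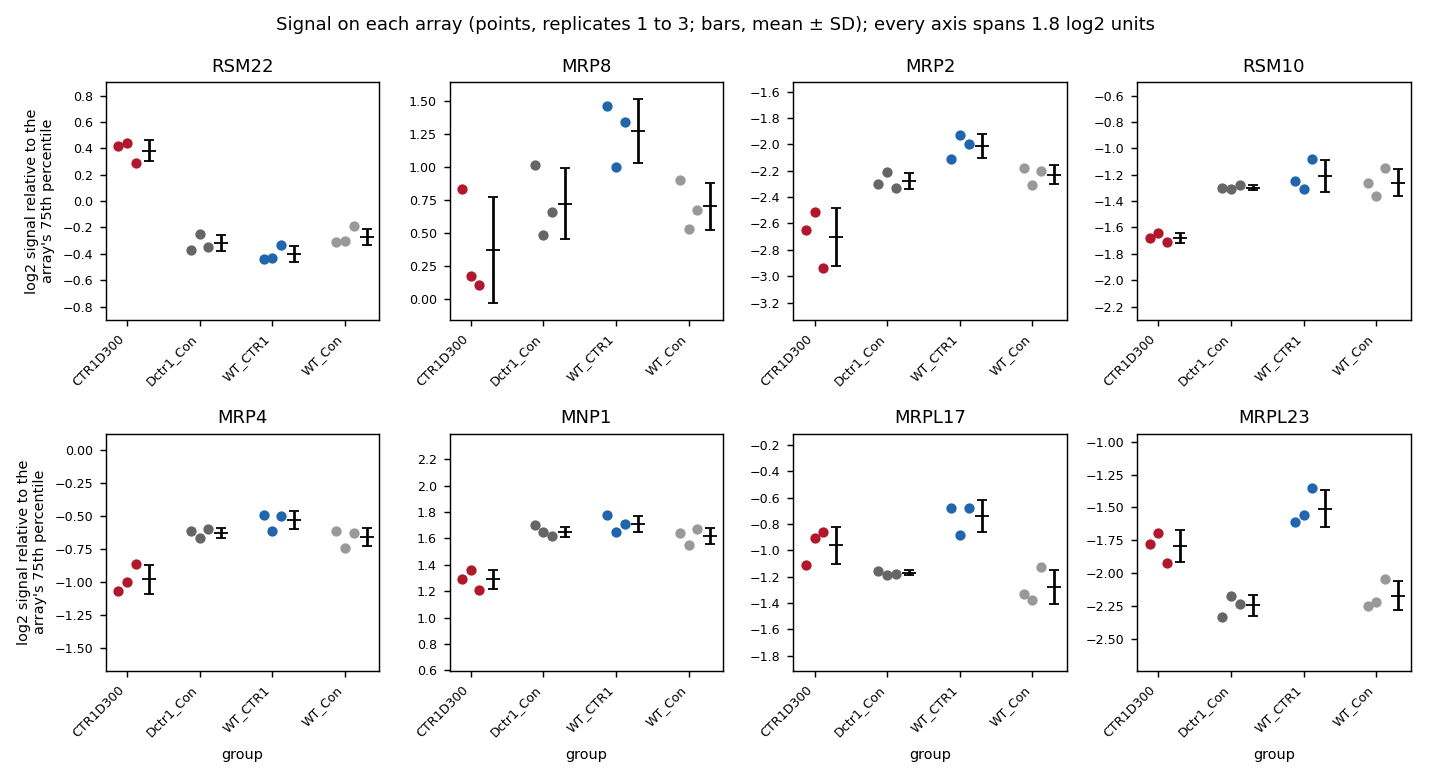
Log2 signal relative to the array's 75th percentile (y axis) for 8 genes in the 4 groups (x axis); points are the 3 arrays of a group and bars the mean ± SD. RSM22 is high only on CTR1D300 arrays, at 0.29 to 0.44, and MRPL23 is higher on the over-expressing arrays of both strains.

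Taken spot by spot, 7 of the 19 falls were called with each spot alone in the same direction, those of RSM10, MRPL1, MRPS28, MRP4, MRPL31, MRPS17 and MRP2. Of the 3 rises, that of RSM22 was. Over all genes, 22.2% fell and 16.3% rose by this stricter rule. The 2 spots had opposite signs for 24 of the 71 members, and among the 22 called members for MRPL23 and for MRPL4 (uL29m), which was at 0.04 and -0.70.

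**Figure D3:**
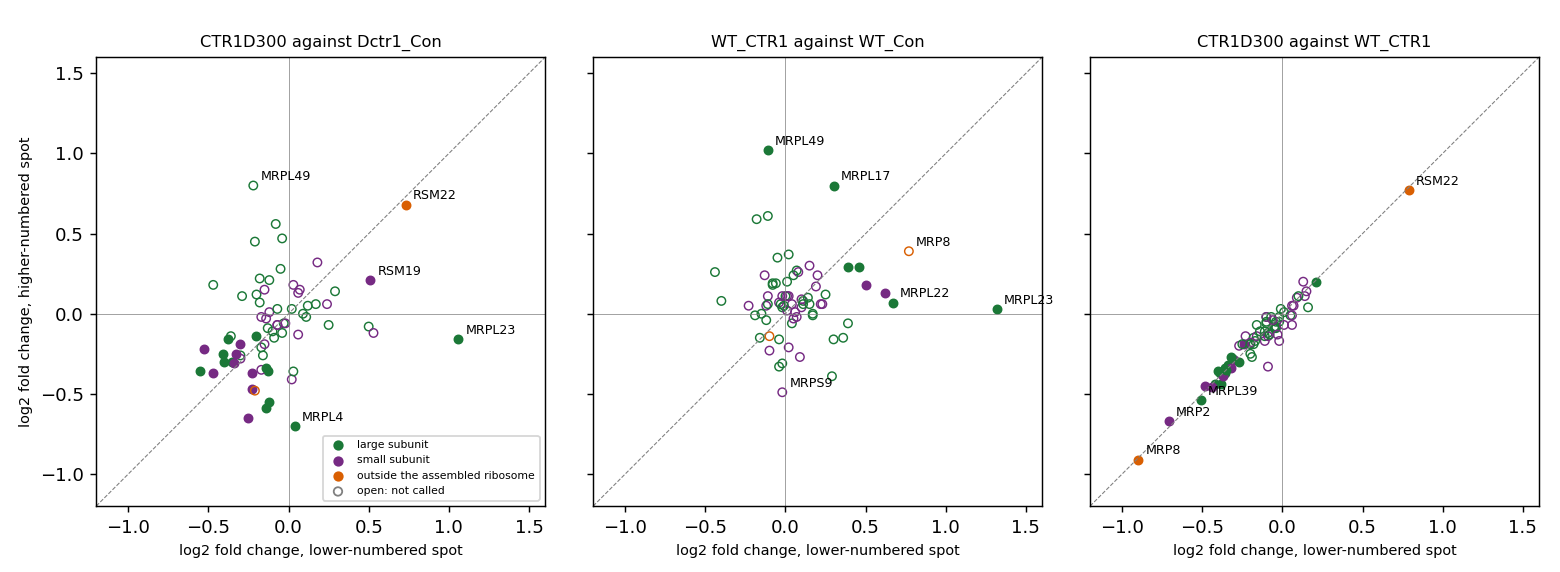
Log2 fold change of the 71 genes through the lower-numbered (x axis) and the higher-numbered spot (y axis) of each probe, in 3 comparisons; filled points were called over both spots and the dashed line marks equal values. Against the controls, in the other slide column, some genes such as MRPL23 (1.06 and -0.16 with CTR1D300) lie far from the line. Spots of opposite sign were found for 24 of 71 genes with CTR1D300, 29 with CTR1 and 5 between the over-expressing groups, in the same column. Between the control groups (not drawn), also in the same column, they were found for 20, with fold changes over both spots of -0.14 to 0.15.

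With full-length CTR1 in the wild type, few of the mitochondrial ribosomal protein genes were called, and without a block all of these were higher. Of the 71, 8 (11.3%) rose and 0 fell, against 7.25% and 6.02% of all genes tested. At an unadjusted p under 0.05, 11 members were higher and 4 lower, against 14.9% and 12.4% of all genes. With the replicate block 9 rose and 1 fell, against 15% and 12.4%. The 8 were MRPL23, MRPL17, MRPL49, MRPS12, MRPL24, MRPL22, MRPL27 and RSM19, 6 of the large and 2 of the small subunit, at 0.33 to 0.66. The median of the 71 was 0.05, beside 0.02 over all genes, and 49 of them were above 0, against 53.8% of all genes. With each spot alone 2 of the 8 rose, MRPL17 and MRPL27, and 0 members fell, against 2.94% and 3.31% of all genes. The count was 2 without slide 1, without WT_Con replicate 2 or without WT_CTR1 replicate 3, 4 without WT_Con replicate 3 or without WT_CTR1 replicate 1, 5 without WT_Con replicate 1 and 3 with normexp background correction. The call of MRPL27 was lost with normexp, without slide 1, and without WT_Con replicate 2 or 3 or WT_CTR1 replicate 1 or 3. Those of MRPL24 and MRPL22 were lost with normexp, through the higher-numbered spot and without slide 1. MRPL24 also lost its call without WT_Con replicate 2 or WT_CTR1 replicate 1 or 3. With a single array left out, MRPL22 kept its call only without WT_CTR1 replicate 2 or CTR1D300 replicate 1 or 3.

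MRPL17 (mL46), a protein specific to mitochondrial ribosomes, had -0.68, -0.88 and -0.68 in WT_CTR1, against -1.33, -1.38 and -1.13 in WT_Con. The groups did not overlap, and MRPL17 rose by 0.53 ± 0.09 (SE, adjusted p = 0.0035), by 0.30 and 0.80 through its 2 spots. With normexp correction it was at 0.24 with an adjusted p of 0.169, and without slide 1 at 0.48 with an adjusted p of 0.0567. MRPL23 had -1.61, -1.56 and -1.35 in WT_CTR1, against -2.25, -2.22 and -2.04 in WT_Con. It rose by 0.66 ± 0.09 (SE, adjusted p = 0.00102), by 1.32 through the lower-numbered spot, and was at 0.03 through the other (adjusted p = 0.842). MRPL49 had -2.20, -1.99 and -1.99 in WT_CTR1, against -2.60, -2.47 and -2.45 in WT_Con. It rose by 0.45 ± 0.11 (SE, adjusted p = 0.0255), but was at -0.11 and 1.02 through its 2 spots. Leaving out WT_Con replicate 1, 2 or 3 or WT_CTR1 replicate 2 or 3 ended the call of MRPL49, at adjusted p values of 0.0521 to 0.0968, as did leaving out slide 1 (0.0713).

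MRPS12 (uS12m), whose family lines the decoding centre, and RSM19 are next to each other in the gene order of the RefSeq table, the only such pair among the members, which lie on 14 chromosomes. MRPS12 had 2.10, 1.86 and 1.94 in WT_CTR1, against 1.72, 1.53 and 1.55 in WT_Con, and rose by 0.37 ± 0.09 (SE, adjusted p = 0.0199). RSM19 had -2.03, -2.01 and -1.82 in WT_CTR1, against -2.30, -2.37 and -2.18 in WT_Con, and rose by 0.33 ± 0.09 (SE, adjusted p = 0.0281). Both rose through the lower-numbered spot, by 0.62 and 0.50, and were at 0.13 and 0.18 through the other. MRPS12 was no longer called with normexp, or without WT_Con replicate 2 or 3 or WT_CTR1 replicate 1 or 3. RSM19 was no longer called without slide 1, WT_Con replicate 1 or 2 or WT_CTR1 replicate 3. MRP8 had 1.46, 1.00 and 1.34 in WT_CTR1, against 0.90, 0.53 and 0.67 in WT_Con. Its groups did not overlap, but it was at 0.57 ± 0.21 (SE, adjusted p = 0.097, and 0.00389 with the replicate block). MRP8 was called through the lower-numbered spot (0.77, adjusted p = 0.0135) and not through the other (0.39, 0.281), and without CTR1D300 replicate 1 (0.0372). RSM22 had -0.44, -0.43 and -0.33 in WT_CTR1, against -0.31, -0.30 and -0.19 in WT_Con, at -0.13 ± 0.07 (SE, adjusted p = 0.239).

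The lowest members with full-length CTR1 did not pass the test over both spots. MRPS9 (uS9m) had -1.54, -1.62 and -1.36 in WT_CTR1, against -1.25, -1.40 and -1.07 in WT_Con, at -0.26 ± 0.10 (SE, adjusted p = 0.106, and 0.0245 with the replicate block). MRPL9 (uL3m) had -0.32, -0.36 and -0.26 in WT_CTR1, against -0.08, -0.18 and -0.08 in WT_Con, at -0.20 ± 0.07 (SE, adjusted p = 0.0789). The groups overlapped for MRPS9 and not for MRPL9. MRPL37 (mL54) had -0.66, -0.54 and -0.49 in WT_CTR1, against -0.38, -0.39 and -0.40 in WT_Con, at -0.18 ± 0.08 (SE, adjusted p = 0.168). MRP21 (bS21m) had -2.07, -2.12 and -1.89 in WT_CTR1, against -1.82, -1.98 and -1.76 in WT_Con, at -0.17 ± 0.08 (SE, adjusted p = 0.184). Through the higher-numbered spot alone MRPS9 (-0.49, adjusted p = 0.00957), MRPL9 (-0.33, 0.0196) and MRPL37 (-0.31, 0.0232) were called, while through the lower-numbered spot they were at -0.02, -0.04 and -0.02. MRP21 was called with the series matrix (-0.22, adjusted p = 0.0491).

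The genes chosen for their roles were also not called with full-length CTR1: MNP1 was at 0.09, IMG1 at 0.16, IMG2 at -0.17, YML6 at 0.19, MRP7 and MRP20 at -0.09, MRP1 at -0.05, RSM26 at -0.11, MRP10 at 0.05, NAM9 at 0.04 and MRP51 at 0.00, with adjusted p values of 0.166 to 0.995. Through single spots 2 of them were called. YML6 was at 0.59 through the higher-numbered spot (adjusted p = 0.00158) and -0.18 through the other, and it was called without WT_CTR1 replicate 2 (0.29, adjusted p = 0.0419). MNP1 was at 0.36 through the lower-numbered spot (adjusted p = 0.00169) and -0.15 through the other. Across both constructs, RSM19 and MRPL23 were the 2 members called in both, higher in each, and in both comparisons the over-expressing arrays lay in the second slide column. Without a block and with all arrays, no member was called in opposite directions, and 43 of the 71 were called with neither construct. With the replicate block MRP8 was called higher with CTR1 (0.57, adjusted p = 0.00389) and lower with CTR1D300 (-0.35, 0.0132). Its calls were also opposite with slide as a block and without CTR1D300 replicate 1.

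**Figure D4:**
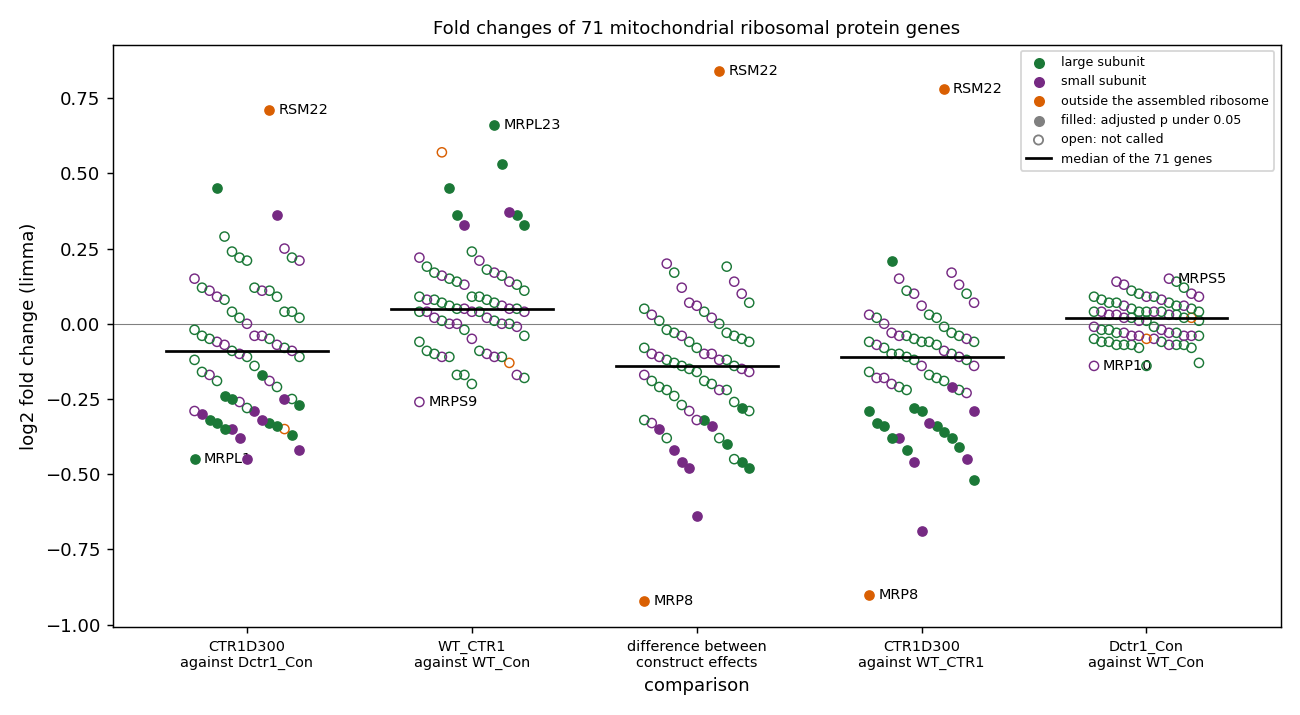
Log2 fold change (y axis) of the 71 genes in the 5 comparisons (x axis), coloured by subunit, with called genes filled and the median of the 71 as a line. No gene reaches 1 in either direction, RSM22 is the highest with CTR1D300 (0.71) and in the difference (0.84), and MRP8 the lowest in the difference (-0.92).

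The difference between the construct effects, (CTR1D300 minus Dctr1_Con) minus (WT_CTR1 minus WT_Con), asks whether the 2 constructs changed a gene unequally, and the slide column enters both of its terms. For 12 members the effect of CTR1D300 was lower than that of CTR1 and for 1 it was higher, against 26.7% and 19.7% of all genes tested. Lower were MRP8, MRP2, MRP4, IMG1, MRP13, MNP1, RSM10, MRPL35, MRPS28, MRPS17, MRPL16 and MRPL50, and higher was RSM22. The median of the members was -0.14, beside -0.07 over all genes, and 16 of the 71 were above 0, against 44.0% of all genes. With the replicate block 22 were lower and 2 higher, against 34.6% and 25.3% of all genes, and with median centring 7 and 2. The count of lower members was 4 without slide 1, 5 without WT_Con replicate 2, WT_CTR1 replicate 3 or Dctr1_Con replicate 1, 7 without WT_CTR1 replicate 1 or CTR1D300 replicate 3, and 19 without WT_CTR1 replicate 2.

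RSM22 differed by 0.84 ± 0.10 (SE, adjusted p = 5.32e-05), and by 0.82 and 0.83 through its 2 spots. MRP2 differed by -0.64 ± 0.14 (SE, adjusted p = 0.00466), by -0.62 and -0.67 through the spots, with WT_CTR1 at -2.11, -1.93 and -2.00 and WT_Con at -2.18, -2.31 and -2.20. MRP4 differed by -0.48 ± 0.10 (SE, adjusted p = 0.00274) and MNP1 by -0.46 ± 0.09 (SE, adjusted p = 0.00191). IMG1 differed by -0.48 ± 0.16 (SE, adjusted p = 0.028), a call that was lost at adjusted p values of 0.0527 to 0.0682 without WT_Con replicate 2 or 3, WT_CTR1 replicate 1 or 3, Dctr1_Con replicate 1 or 2 or CTR1D300 replicate 3, at 0.0612 with median centring and at 0.0617 without slide 1. MRP8 differed by -0.92 ± 0.29 (SE, adjusted p = 0.0252, and 0.000585 with the replicate block). It lost its call, at adjusted p values of 0.0507 to 0.0611, without WT_Con replicate 2 or 3, WT_CTR1 replicate 1 or 3, Dctr1_Con replicate 1 or CTR1D300 replicate 2 or 3. The highest members after RSM22 were MRP10 at 0.20 ± 0.14 (SE, adjusted p = 0.268), which was called at 0.40 with quantile normalisation (adjusted p = 0.0132) and with the series matrix (0.0114), and MRPL10 (uL15m) at 0.19 ± 0.12 (SE, adjusted p = 0.201). MRP10 had -3.14, -3.30 and -3.45 with CTR1D300, against -3.56, -3.50 and -3.57 in Dctr1_Con, and -3.31, -3.53 and -3.22 in WT_CTR1, against -3.38, -3.53 and -3.29 in WT_Con. MRPL10 had -1.55, -1.46 and -1.63 with CTR1D300, against -1.49, -1.55 and -1.66 in Dctr1_Con, and -1.70, -1.75 and -1.52 in WT_CTR1, against -1.52, -1.54 and -1.39 in WT_Con. MRP7 was at 0.17 ± 0.08 (SE, adjusted p = 0.0961), and it was called with the replicate block (0.0386), with median centring (0.24, adjusted p = 0.0255) and through the lower-numbered spot (0.27, adjusted p = 0.027). With each spot alone, 8 were lower and RSM22 higher, against 22.8% and 16.2% of all genes.

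The CTR1D300 and WT_CTR1 arrays lay in the same slide column and were compared directly, in cells that also differ by the deletion. Replicates 2 and 3 lay on slide 2 for WT_CTR1 and on slide 3 for CTR1D300. Without slide 1, slide and group therefore cannot be told apart. Of the 71, 20 were lower and 2 higher with CTR1D300, against 38.4% and 24.5% of all genes tested. The median of the members was -0.11, the same as over all genes, and 15 of the 71 were above 0, against 40.2% of all genes. With each array centred on its median 14 were lower and 5 higher, with quantile normalisation 15 and 7, and without slide 1 11 and 2. Shares of all genes were not set beside these counts, so they do not show whether the members moved apart from all genes. The 2 spots were close here: 18 falls and both rises were called with each spot alone, against 34.5% and 22.3% of all genes. RSM22 was higher by 0.78 ± 0.07 (SE, adjusted p = 2.94e-06) and MRP7 by 0.21 ± 0.06 (SE, adjusted p = 0.00649). The MRP7 values were -0.03, 0.01 and 0.04 with CTR1D300 and -0.20, -0.26 and -0.16 in WT_CTR1. MRP8 was lower by the most, at -0.90 ± 0.21 (SE, adjusted p = 0.00295), followed by MRP2 at -0.69 ± 0.10 (SE, adjusted p = 0.000172). MRPL39 (bL33m) came next, with -2.35, -2.18 and -2.75 with CTR1D300 and -1.97, -1.81 and -1.94 in WT_CTR1, at -0.52 ± 0.12 (SE, adjusted p = 0.00311). The number of higher members was 4 without WT_CTR1 replicate 3.

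Deletion of CTR1 with an empty vector gave no called member. Against WT_Con, 0 members rose and 0 fell, beside 0.326% and 0.163% of all genes tested, and at an unadjusted p under 0.05 the counts were also 0 and 0, beside 2.04% and 6.53%. The members lay between -0.14 and 0.15, with a median of 0.02 and a median SE of 0.09. At the ends were MRPS5 (uS5m) at 0.15 ± 0.09 and MRPL15 (mL57) at 0.14 ± 0.08, and MRP10 at -0.14 ± 0.10 and MRPL39 at -0.14 ± 0.12 (SE, adjusted p = 0.722 to 0.883 for the 4). MRPS5 had -0.63, -0.79 and -0.75 in Dctr1_Con, against -0.80, -0.98 and -0.84 in WT_Con, and MRPL15 had -0.92, -1.04 and -1.04, against -1.07, -1.24 and -1.10 in WT_Con. MRPL39 had -2.30, -2.17 and -2.18 in Dctr1_Con, against -2.07, -2.10 and -2.07 in WT_Con. NAM9 had 0.36, 0.33 and 0.27 in Dctr1_Con, against 0.23, 0.24 and 0.22 in WT_Con. These 4 were the members whose groups did not overlap, 3 higher and 1 lower, beside 3.61% and 11.3% of all genes tested. Within slide 1, which carried an array of each strain, the median difference of the members was -0.01, with 33 of 71 above 0. For replicates 2 and 3, whose arrays lay on different slides, it was 0.10 with 65 above 0 and -0.05 with 16 above 0.

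By array, the median deviation of the 71 genes from their own means was -0.09, 0.01 and -0.10 with CTR1D300 and 0.06, 0.02 and -0.03 in Dctr1_Con. It was 0.11, -0.06 and 0.15 in WT_CTR1 and 0.04, -0.08 and 0.06 in WT_Con. Replicate 2 was the low array of both wild-type groups and the high one with CTR1D300, so the groups overlap on this measure. Within replicates, the median difference of CTR1D300 from Dctr1_Con was -0.14 for replicate 1 on slide 1, and -0.01 and -0.13 for replicates 2 and 3 on slide 3. That of WT_CTR1 from WT_Con was 0.05 on slide 1, and 0.03 and 0.08 on slide 2. That of CTR1D300 from WT_CTR1 was -0.18 within slide 1, and 0.04 and -0.24 for replicates 2 and 3, which lay on different slides. For CTR1D300 against Dctr1_Con, the median was -0.08 over the 42 large-subunit genes and -0.09 over the 27 small-subunit genes. The 45 proteins of bacterial families had a median of -0.09, with 14 falls (31.1%) and 2 rises (4.44%), and the 24 found in mitochondria only had one of -0.07, with 5 falls (20.8%) and 0 rises, beside 30.6% and 24.0% of all genes. With the replicate block, rises numbered 7 and 2, and falls 17 and 8, in the bacterial-family and the mitochondria-only genes.

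**Figure D5:**
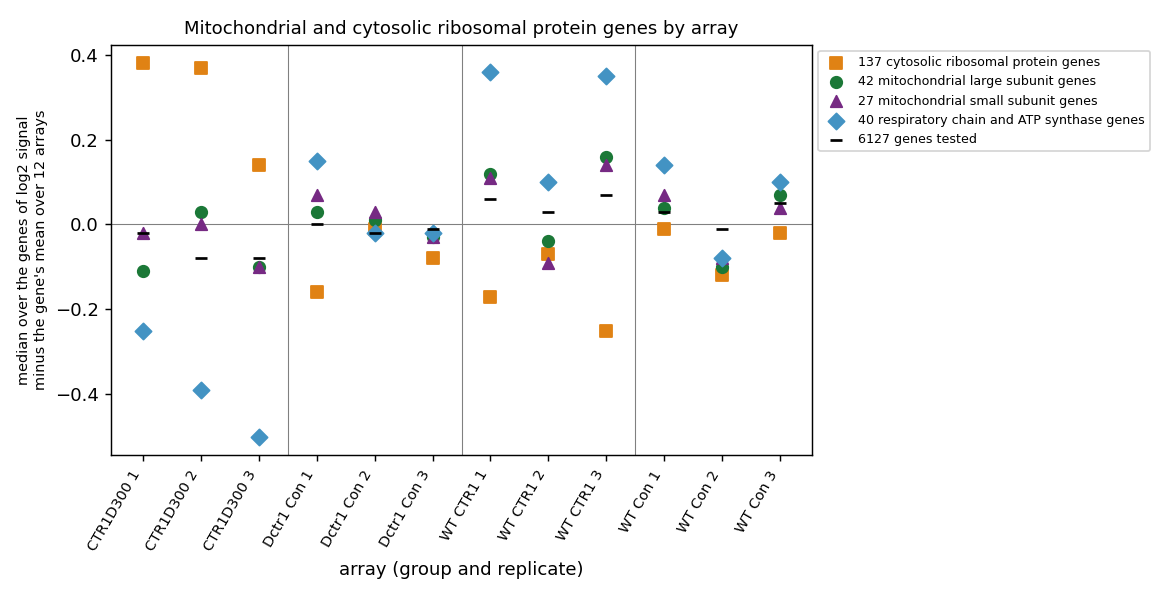
Median deviation from each gene's mean over the 12 arrays (y axis, log2) on each array (x axis) for 5 gene groups. On the 3 CTR1D300 arrays the cytosolic ribosomal protein genes are at 0.38, 0.37 and 0.14 and the respiratory genes at -0.25, -0.39 and -0.50. The mitochondrial ribosomal protein genes are between them, as are all genes tested at -0.02, -0.08 and -0.08.

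The genes for the cytosolic ribosome and for the respiratory chain went further from the controls, in opposite directions. With CTR1D300 against Dctr1_Con, 99 of the 137 genes listed as cytosolic ribosomal proteins rose and 1 fell, beside 24.0% and 30.6% of all genes. Their median was 0.35, from RPL15B at -0.19 (adjusted p = 0.0429) to RPL41A at 2.39. The list also holds RPP1, which is not a ribosomal protein gene. With each spot alone 60 of the 137 rose and 0 fell, beside 16.3% and 22.2% of all genes. Of 40 nuclear genes for the respiratory chain and ATP synthase 25 fell and 1 rose, with a median of -0.42, from NDI1 (the internal NADH dehydrogenase) at -0.96 to COX9 (a cytochrome oxidase subunit) at 0.73. The mitochondrial ribosomal protein genes, at -0.09, lay between both, as did the median over all genes at -0.05. Of the respiratory genes, 33 fell and 2 rose with the replicate block, beside 37.2% and 29.3% of all genes. With CTR1 against WT_Con, 18 cytosolic ribosomal protein genes (13.1%) fell and 4 (2.92%) rose (RPL41A, RPL41B, RPL14B and RPS23A), beside 6.02% and 7.25% of all genes. The list median was -0.13, from RPL3 at -0.68 to RPL41A at 2.32. Of the respiratory genes 5 (12.5%) rose (NDE2, ATP19, QCR7, COX9 and COX12) and 0 fell, beside 7.25% and 6.02%. The respiratory median was 0.19, from CYC7 at -0.42 (adjusted p = 0.451) to NDE2 at 0.74. At an unadjusted p under 0.05, 14 respiratory genes were higher and 0 lower, beside 14.9% and 12.4% of all genes. With the replicate block 37 cytosolic ribosomal protein genes fell and 14 respiratory genes rose, beside 12.4% falling and 15% rising of all genes. With each spot alone 5 cytosolic ribosomal protein genes fell and 1 respiratory gene rose, beside 3.31% and 2.94%.

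Other genes of the same pathway were taken from lists by role. Of 10 mitoribosome protein genes that the name rule does not reach, 4 (FYV4, MRX14, EHD3 and RML2) fell and 0 rose with CTR1D300, beside 30.6% and 24.0% of all genes. The list median was -0.15, and 2 fell with each spot alone, beside 22.2% of all genes. FYV4 at -0.46 and VAR1 at 0.27 (adjusted p = 0.414) were the ends. With CTR1, 1 of these 10 rose, MHR1 at 0.35, beside 7.25% of all genes, and the lowest was QRI5 at -0.12 (adjusted p = 0.33). VAR1, the ribosomal protein encoded in mitochondrial DNA, had -6.64, -6.76 and -6.96 with CTR1D300, against -7.36, -6.95 and -6.86 in Dctr1_Con, which overlap. Of 38 factors of mitochondrial translation and gene expression, 15 (39.5%) fell and 6 (15.8%) rose with CTR1D300 (median -0.18), beside 30.6% and 24.0% of all genes and a median of -0.05. With each spot alone 11 fell and 2 rose, beside 22.2% and 16.3% of all genes.

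The ends of that list were wider than those of the ribosomal proteins. MEF2, a mitochondrial elongation factor-like GTPase that acts in ribosome recycling, had -2.42, -2.49 and -2.34 with CTR1D300, against -1.25, -1.42 and -1.28 in Dctr1_Con, and fell, at -1.10 ± 0.15 (SE, adjusted p = 0.000148). MRM1, a methyltransferase of the large mitochondrial ribosomal RNA, had 1.11, 1.00 and 1.04 with CTR1D300, against 0.33, 0.29 and 0.26 in Dctr1_Con, and rose by 0.76 ± 0.08 (SE, adjusted p = 1.56e-05). With CTR1, 4 of the 38 (10.5%) rose (CBS2, OXA1, CBP1 and PET309) and 2 (5.26%) fell (MRM1 and MRM2), beside 7.25% and 6.02% of all genes. The list median was 0.02. The ends were CBS2, an activator of cytochrome b translation, at 0.40 and MRM2, another ribosomal RNA methyltransferase, at -0.39. Through the higher-numbered spot alone these 2 were at 0.01 and 0.06. With the replicate block 8 of the 38 rose and 5 fell with CTR1, beside 15% and 12.4% of all genes. With each spot alone 0 rose and 1 fell, beside 2.94% and 3.31%.

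Of the regulators, HAP4 had -0.94, -2.09 and -1.25 with CTR1D300, against 0.22, -1.41 and -0.50 in Dctr1_Con. Its groups overlapped, and it was at -0.86 ± 0.36 (SE, adjusted p = 0.0648, and 0.0407 with the replicate block). It was at 0.37 ± 0.36 (SE, adjusted p = 0.558) with CTR1, where the lowest of the 6 regulators, HAP3, was at -0.11. PUF3 was at 0.15 ± 0.12 (SE, adjusted p = 0.302) with CTR1D300 and at 0.01 ± 0.12 (SE, adjusted p = 0.961) with CTR1. Of the 6 regulators, HAP1 (-0.49) and HAP2 (-0.39) fell and 0 rose with CTR1D300, beside 30.6% and 24.0% of all genes. With CTR1 0 of them were called, either at the adjusted threshold or at an unadjusted p under 0.05. Of 8 protein genes of mitochondrial DNA, 1 rose with CTR1D300, ATP6 at 0.77, beside 24.0% of all genes, with ATP8 the lowest at 0.00. With CTR1 2 rose, COX2 at 0.69 and COX3 at 0.44, beside 7.25% of all genes. The COX2 values were -5.86, -5.25 and -5.76 in WT_CTR1, against -6.36, -6.28 and -6.30 in WT_Con. There were 4 rises with the replicate block, beside 15%, and 1 with each spot alone, beside 2.94%. ATP8 was again lowest at -0.42 (adjusted p = 0.395).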

How the data were processed

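RNA of 12 yeast cultures was labelled with Cy3 (0.4 µg each) and hybridised to 1-colour Agilent arrays. The scanner output was made with Feature Extraction 10.7.1.1 (Agilent) on design 016322, per the file headers, and the deposited processed signal is a background-subtracted intensity per spot. The deposited flags (other: 0 or 1) mark spots well above background. The authors' series matrix of 5202 deposited log2 values per array, which holds 69 of the 71 members, served as an alternative. Its columns correlated with the scanner files at r of 0.99962 or more across probes, and how its genes were selected was not stated.

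Each probe's value was the mean log2 processed signal of its 2 spots, set relative to each array's 75th percentile over 6256 gene probes. A probe entered the fit if 3 arrays or more had it well above background (6155 did), and the brightest stood for a gene. Each member had 1 probe. Group means were fitted to all 12 arrays with limma 3.58.1 in R 4.3.3 (8 residual degrees of freedom), 2-sided, with Benjamini-Hochberg adjustment within each of 5 comparisons, and checked on simulated data. Median processed signals were 1792 to 2999 per array, and the number of arrays limits the precision.

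Symbols and ribosomal family names come from the RefSeq table of assembly R64, used for names only. Members, subunit lists and related lists were chosen with earlier results of these data known. Genes were named by rule: the 4 highest and 4 lowest members for each construct, 3 and 3 for the difference, 2 and 2 for the other comparisons, a list chosen for role, members at the ends of lists, and the ends of related lists. Other called genes, in the members and in the related lists, were named after their values were seen.

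Same-numbered arrays deviated together across genes (correlations 0.750, 0.692 and 0.342 for WT_CTR1 and WT_Con, 0.679, 0.699 and 0.394 for CTR1D300 and Dctr1_Con, and 0.554, 0.295 and 0.134 for the 2 control groups), so blocked values stand beside the printed calls they change and the counts they move by over 1.5 times. For CTR1D300 and WT_CTR1 they were 0.381, 0.407 and -0.03. Alternatives were normexp (offset 50, on median spot signals, since the files hold no mean signal), median centring, quantile normalisation, other dim-probe filters, mean of probes, single spots, replicate and slide blocks, leaving out slide 1 or single arrays, and the series matrix.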

Additional observations from a re-analysis of the deposited data

Results flagged for a closer look

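For 13 members the effects of the 2 constructs differed by the test of the difference itself (limma, adjusted over all genes tested). The difference of CTR1D300 over Dctr1_Con minus CTR1 over WT_Con was 0.84 for RSM22, which was at 0.71 with CTR1D300 and -0.13 with CTR1. It was negative for the other 12, of which 6 were above 0.1 with CTR1. MRP8 (-0.92), MRP2 (-0.64), IMG1 (-0.48), MRP13 (-0.46) and MRP4 (-0.48) were below 0 with CTR1D300 and above it with CTR1, at 0.57, 0.22, 0.16, 0.17 and 0.13. MRPL50 (-0.28) was at -0.17 with CTR1D300 and 0.11 with CTR1. MNP1 (-0.46), RSM10 (-0.42), MRPL35 (-0.40), MRPS28 (-0.35), MRPS17 (-0.34) and MRPL16 (-0.32) were below 0 with CTR1D300 and between -0.10 and 0.09 with CTR1. With the higher-numbered spot alone, the calls of MRP8, MRPL50, MRPL16 and MRPS17 were lost. Median centring ended those of MRPL16, IMG1, MRPS28, MRPS17 and MRPL50, and normexp that of MRPS17. Quantile normalisation and the series matrix each ended those of MRPL35 and MRPL50. Leaving out some single arrays ended those of MRPL16, IMG1, MRPL35, MRPS28, MRP8, MRPS17 and MRPL50. Without slide 1 the calls of MRPL16, IMG1, RSM10, MRPL35, MRPS28, MRP13, MRPS17 and MRPL50 were lost. Groups of 3 arrays were not tested for single arrays that stand apart.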

How the results depend on the processing

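Leaving out 1 array gave, for CTR1D300 against Dctr1_Con, 3 to 6 members higher and 12 to 22 lower, for WT_CTR1 against WT_Con 2 to 9 higher and 0 lower, for CTR1D300 against WT_CTR1 2 to 4 and 14 to 28, and for the difference 1 and 5 to 19. Higher members with CTR1D300 (3) numbered 5 with normexp or slide as a block, 9 with quantile normalisation or the series matrix, 8 with either spot alone, 10 with the replicate block, 11 with median centring and 1 when each spot had to pass (a rule chosen after seeing the data), where the 19 lower became 7, as they did without slide 1. With CTR1 (8 higher, 0 lower) there were 3 higher with normexp, 2 without slide 1 or with each spot required, and lower 3 with either spot alone and 1 with the replicate block or the series matrix. Against WT_CTR1 (2 and 20), higher were 5 with median centring and 7 with quantile normalisation or the series matrix, and lower 11 without slide 1. In the difference (1 and 12), higher were 2 with median centring, quantile normalisation, the lower-numbered spot, the replicate block or the series matrix, and lower 7 with median centring, 22 with the block and 4 without slide 1. The cause of these moves was not tested, and shares of all genes in these settings are given only where printed above. Among the gene values printed, the replicate block changed no call other than those given beside them. Signs turned for genes near 0 or with unlike spots. Through the lower-numbered spot, with CTR1, MRPL49 was at -0.11, YML6 at -0.18, NAM9 at -0.02, RSM26 at 0.02 and MRP51 at 0.05, and with CTR1D300 MRPL49 was at -0.22 and YML6 at -0.08. Through the higher-numbered spot MRPL23 was at -0.16 with CTR1D300, MNP1 at -0.15 and MRP1 at 0.05 with CTR1, and YML6 at -0.03 and IMG2 at 0.00 in the difference. With CTR1, MRP10 was at -0.04 and MRP51 at 0.04 with quantile normalisation and with the series matrix, MRP51 at 0.01 with normexp, and MRP1 was at 0.03 in the difference with median centring. Leaving out 1 array turned the sign of genes near 0. With CTR1 the range was -0.10 to 0.02 for MRP1, -0.02 to 0.14 for MRP10, -0.10 to 0.12 for MRP51 and -0.21 to 0.08 for MRP20, and in the difference -0.11 to 0.01 for MRP1, 0.00 to 0.09 for NAM9, -0.05 to 0.15 for YML6 and -0.01 to 0.10 for IMG2. The other alternatives changed no member count by over 1.5 times. With 3 arrays a group, changes near 0.2 mostly did not pass the test.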
